A study of Danio rerio with 6 samples.

Results

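The genes described here belong to the insulin-like growth factor (IGF) axis and the FoxO transcription factors that it controls, measured in larval zebrafish fins regenerating with or without a synthetic glucocorticoid. Members were all probe sets annotated to a single gene symbol out of igf1, igf2b, igf1ra, igfbp1a, igfbp2a, igfbp3, igfbp5b, irs2b, foxo3b and foxo1a. Of these 10 genes, 8 were found, with 11 probe sets among the 15502 tested and 8 genes among 8793 with a single symbol. Irs2b and foxo1a were not matched to a probe set and are not analysed here. Igfbp1a, igfbp3 and foxo3b had several probe sets, and each one is shown.

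The exposed larvae were of the AB strain, had their caudal fin amputated at 2 days post fertilization and were kept with 1 uM beclomethasone, a synthetic glucocorticoid, in the water until 1 day post amputation. The control larvae were of the same strain, age at amputation and stage of regeneration. The series description calls them vehicle controls, and the protocol of the exposed samples names DMSO as the vehicle, but the protocol of the control samples describes a regeneration time course and names no vehicle. Each group had 3 pools of 150 regenerating fins, and each pool was hybridised to an Affymetrix zebrafish array. No batch is labelled, so effects of the exposure and of separate collection cannot be told apart. The labels call the pools replicates and say nothing of clutches or days, so p-values rest on the spread between pools, which may be technical. A pool holds the whole regenerating fin, so fewer cells of a type and less RNA per cell cannot be told apart.

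The deposited values were read as linear ratios: for 12601 of 15617 probe sets the median over the 6 arrays was 1 within 1e-06, and for 3015 it was below 1. The ratios compare pools within a probe set and give no level, so whether a gene or a fin marker was present above background is unknown. Across probe sets, which do not count as replicates, Pearson's r of log2 ratios was 0.656 to 0.748 within the exposed group and 0.583 to 0.778 within the control group. Their number, 3 arrays per group, limits the precision of every value. Groups were compared with limma over all probe sets or all genes. Limma draws each variance towards a value shared over the fit, so an SE reflects more than a gene's own pools. A gene is said to have risen or fallen only at a Benjamini-Hochberg adjusted p under 0.05.

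IGF ligands bind a receptor tyrosine kinase of the insulin receptor family, which signals through insulin receptor substrate adaptors to phosphoinositide 3-kinase (PI3K) and the kinase Akt. Akt activates the growth kinase mTOR and phosphorylates FoxO factors, which then leave the nucleus; when the pathway is weak, FoxO factors switch on genes of growth arrest, stress resistance and catabolism. IGF binding proteins hold the ligands in the extracellular space and can limit or prolong their action. In the adult zebrafish fin, igf2b is known as a ligand gene of the blastema, and IGF signalling is known to be needed for regeneration. In mammals, glucocorticoids are known to raise FoxO factors and several brakes of this pathway in muscle and liver.

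Among the members, one probe set of foxo3b rose in beclomethasone-exposed fins, the other 10 member probe sets did not pass, and none fell. Over all 15502 probe sets, 2.88% rose and 3.24% fell by the same test. All exposed pools lay above all control pools for 2 of the 11 member probe sets, those of igf2b and of foxo3b, where this held for 14.5% of all probe sets. None lay wholly below its controls, against 11.8% of all probe sets, and the groups overlapped for the other 9. The median log2 difference was 0.07 over the 11 member probe sets and 0.03 over all. At an unadjusted p under 0.05, 3 member probe sets were higher, those of igf2b, igfbp2a and foxo3b, and 0 were lower in limma, where 11.0% of all probe sets were higher and 10.0% lower at that threshold.

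**Figure D1:**
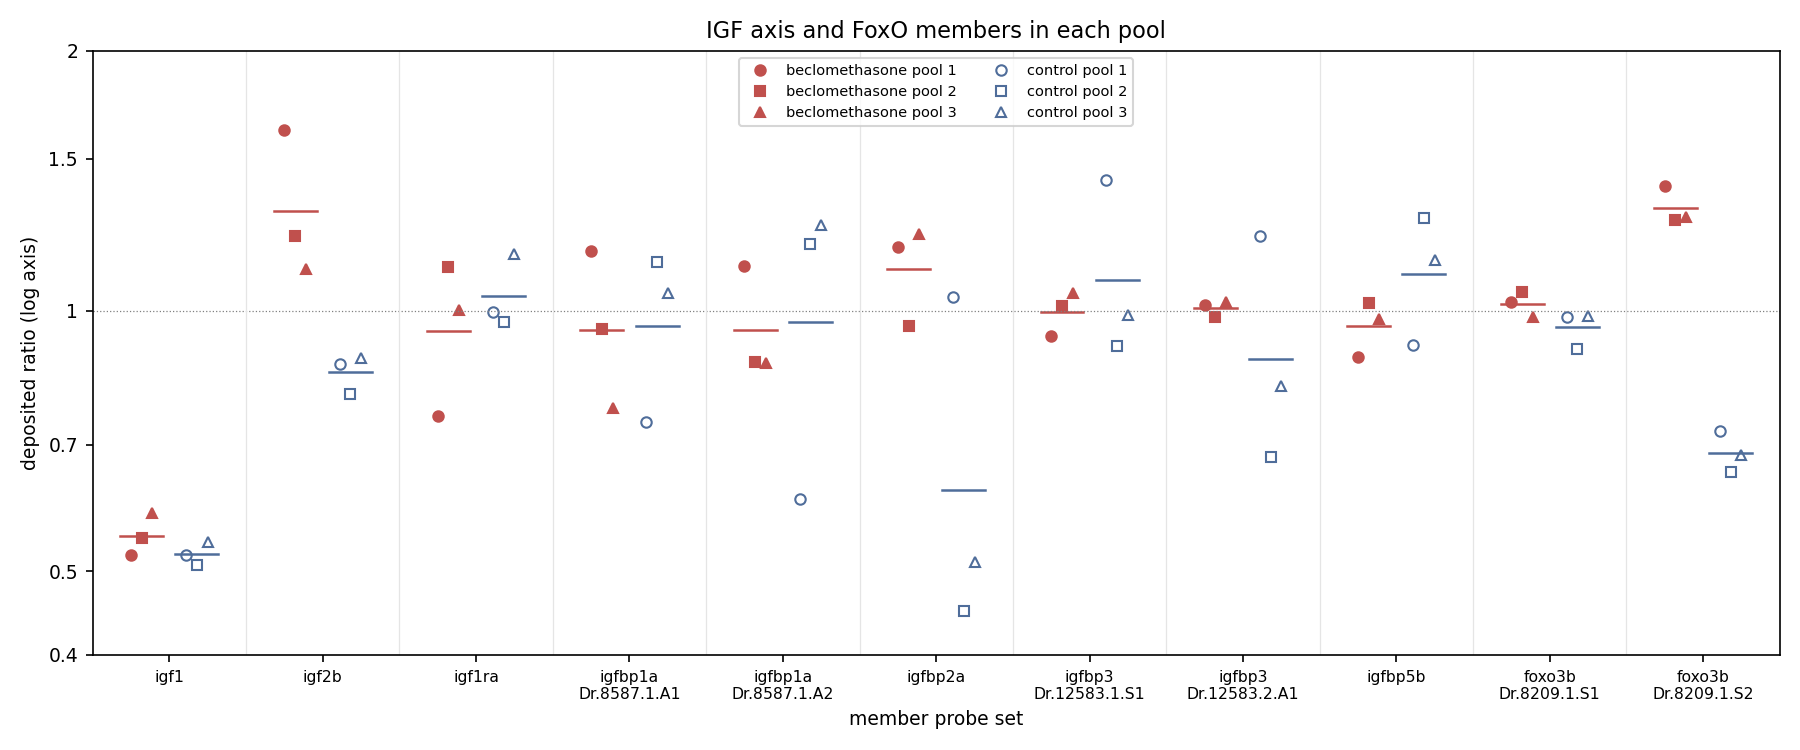
Deposited ratio of each member probe set in each pool (log axis), with filled red symbols for the 3 beclomethasone pools, open blue symbols for the 3 control pools and bars for geometric means. The groups are clear of each other for igf2b and for foxo3b probe set Dr.8209.1.S2_at, while the other foxo3b probe set stays between 0.903 and 1.05 in all 6 pools.

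Of the member ligand genes, neither passed. Igf2b, which encodes an Igf2 ligand, had ratios of 1.62, 1.22 and 1.12 in beclomethasone pools 1 to 3, against 0.867, 0.801 and 0.881 in control pools 1 to 3. Every exposed pool was above every control pool, and exposed pool 1 was highest. The log2 difference was 0.62 ± 0.15 (SE, n = 3 pools per group; 1.53-fold), with a limma adjusted p of 0.0589 over probe sets, so the difference did not pass. Fitted by gene, a choice added after the values were seen, the same values gave a limma adjusted p of 0.046 over 8793 genes. Leaving out any single pool ended that call, with adjusted p between 0.0572 and 0.124 and differences between 0.46 and 0.73.

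Igf1, the ligand gene that growth hormone controls in the liver, had ratios of 0.522, 0.546 and 0.583 in beclomethasone pools and 0.522, 0.509 and 0.540 in control pools. The groups overlapped, all ratios were well below 1, and the divisor of such probe sets is not known. The log2 difference was 0.07 ± 0.10 (limma adjusted p = 0.774; -0.035 with quantile normalization), with a 95% interval of -0.15 to 0.30, which overlaps that of igf2b, 0.26 to 0.97. The difference between the ligand genes was not tested.

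The Igf2 paralogue igf2a, which is not a member, rose. Its ratios were 1.25, 1.25 and 1.39 in beclomethasone pools against 0.564, 0.755 and 0.691 in control pools. The groups were well apart, and the log2 difference was 0.96 ± 0.13 (1.94-fold; limma adjusted p = 0.00712 over genes). It passed without any 1 pool, with adjusted p up to 0.0366.

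None of the receptor genes passed. Igf1ra, which encodes an IGF1 receptor, had ratios of 0.756, 1.12 and 1.00 in beclomethasone pools against 0.998, 0.972 and 1.16 in control pools. Exposed pool 1 was the lowest of the 6 and the groups overlapped. The log2 difference was -0.14 ± 0.16 (limma adjusted p = 0.747), with a 95% interval of -0.52 to 0.25; it was 0.064 with array weights and 0.028 without exposed pool 1. The paralogue igf1rb had a gene value of 0.02 ± 0.15 (adjusted p = 0.951; -0.00050 with quantile normalization), but its probe sets gave -0.26 ± 0.10 and 0.30 ± 0.27, neither passing (limma adjusted p = 0.218 and 0.634). The first of these had ratios of 0.899, 0.889 and 0.981 in beclomethasone pools against 1.11, 1.02 and 1.18 in control pools, with every exposed pool below every control pool. Of the insulin receptor genes, insra had a log2 difference of 0.14 ± 0.09 (adjusted p = 0.424). Insrb had one of 0.04 ± 0.10 (adjusted p = 0.865; -0.057 with quantile normalization). The single insra probe sets gave 0.34, 0.06 and 0.03, none passing. The latter insra probe sets had median ratios of 0.777 and 0.763, and those of insrb 0.523 and 0.692, so their divisors are not known.

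Of the binding protein genes, 4 with 6 probe sets, none passed. Igfbp2a, whose protein is one of the IGF carriers in blood, had ratios of 1.19, 0.961 and 1.23 in beclomethasone pools against 1.04, 0.450 and 0.513 in control pools. Control pool 1 lay within the exposed range and the other control pools far below it. The log2 difference of 0.85 ± 0.30 (1.80-fold) did not pass in limma (adjusted p = 0.16), and it became 1.22 with an adjusted p of 0.00352 without control pool 1. The SE of igfbp2a was the highest among the members, whose SE ran from 0.10 to 0.30.

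Igfbp1a, a binding protein gene known to respond to fasting, hypoxia and stress, varied more between pools of a group than between groups. Probe set Dr.8587.1.A1_at had ratios of 1.17, 0.952 and 0.772 in beclomethasone pools and 0.743, 1.14 and 1.05 in control pools. Probe set Dr.8587.1.A2_at had ratios of 1.13, 0.872 and 0.872 in beclomethasone pools and 0.607, 1.19 and 1.26 in control pools. Both were lowest in control pool 1 and both had overlapping groups. The log2 differences were -0.01 ± 0.21 (limma adjusted p = 0.978) and -0.03 ± 0.28 (limma adjusted p = 0.967), and leaving out single pools turned the sign of each. The 95% intervals were -0.50 to 0.47 and -0.69 to 0.63. The paralogue igfbp1b had a value of -0.06 ± 0.22 (adjusted p = 0.906). Its median ratio was 0.866, below 1, so its divisor is not known.

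The igfbp3 probe sets gave opposite signs and neither passed. Probe set Dr.12583.1.S1_at had ratios of 0.936, 1.01 and 1.05 in beclomethasone pools against 1.42, 0.911 and 0.988 in control pools, a log2 difference of -0.12 ± 0.17 (limma adjusted p = 0.786; 0.072 without control pool 1). Probe set Dr.12583.2.A1_at had ratios of 1.01, 0.985 and 1.02 in beclomethasone pools against 1.22, 0.678 and 0.820 in control pools, a log2 difference of 0.20 ± 0.20 (limma adjusted p = 0.694; 0.43 without control pool 1). The exposed pools were close together and the control pools spread, with control pool 1 highest for both. Igfbp5b had ratios of 0.884, 1.02 and 0.979 in beclomethasone pools against 0.913, 1.28 and 1.14 in control pools. Its groups overlapped through control pool 1, and its log2 difference of -0.20 ± 0.15 did not pass (limma adjusted p = 0.531).

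The FoxO gene foxo3b gave the clearest difference among the members, in only 1 of its 2 probe sets. Probe set Dr.8209.1.S2_at had ratios of 1.39, 1.27 and 1.28 in beclomethasone pools against 0.726, 0.652 and 0.681 in control pools. The pools of each group were close together and the groups far apart. The log2 difference was 0.94 ± 0.10 (1.92-fold, 95% interval 1.64 to 2.25; limma adjusted p = 0.00379). The call held without any 1 pool, with differences between 0.90 and 0.98 and adjusted p up to 0.0231.

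Probe set Dr.8209.1.S1_at of foxo3b had ratios of 1.02, 1.05 and 0.985 in beclomethasone pools against 0.983, 0.903 and 0.988 in control pools. The groups overlapped and the log2 difference was 0.09 ± 0.10 (limma adjusted p = 0.696), with a 95% interval of -0.13 to 0.31 that lies below the interval of the other probe set, 0.71 to 1.17. Its median ratio was 0.986, below 1, so its divisor is not known. Within each pool, the log2 ratio of Dr.8209.1.S2_at minus that of Dr.8209.1.S1_at was 0.45, 0.28 and 0.38 in beclomethasone pools and -0.44, -0.47 and -0.54 in control pools. The groups thus differed by 0.85 in this measure, from which a divisor that is the same in all 6 pools cancels. The value is a description, since 3 pools against 3 cannot reach a two-sided p below 0.1 in an exact permutation test. The igfbp3 probe sets, Dr.12583.2.A1_at minus Dr.12583.1.S1_at, differed by 0.32 in the same measure. As a mean of both probe sets, a choice added after the values were seen, foxo3b had a difference of 0.52 ± 0.09 (limma adjusted p = 0.0172 over genes); omitting any single pool but control pool 1 ended that call, with adjusted p up to 0.0651. The paralogue foxo3a had a mean value of 0.14 ± 0.16 over 3 probe sets (adjusted p = 0.676), with 0.01, 0.38 and 0.04 for the single probe sets. The probe set with 0.01 had a median ratio of 0.735, so its divisor is not known either.

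Which genes most resembled foxo3b probe set Dr.8209.1.S2_at was read as Pearson's r of log2 ratios over the 6 pools, which share the group difference. The 5 genes of highest r were slc25a38b (r = 0.9996), pla2g15 (r = 0.998), slc43a2a (r = 0.996), matn4 (r = 0.996) and nt5dc2 (r = 0.995), and each of them rose. Their log2 differences were 0.48, 0.99, 1.23, 0.39 and 1.82, in that order. As these genes were chosen by likeness over the same pools, their rise follows largely from the choice. For igfbp1a, as the mean of its probe sets, the 5 genes of highest r were irg1l (r = 0.995), kptn (r = 0.985), cyp46a1.4 (r = 0.980), rnf146 (r = 0.979) and fxyd3 (r = 0.978). None of them passed, which also follows largely from the choice. The ratios of irg1l, an immune-response gene, were 1.51, 0.493 and 0.291 in beclomethasone pools against 0.0918, 1.54 and 1.97 in control pools, so its groups overlapped widely.

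**Figure D2:**
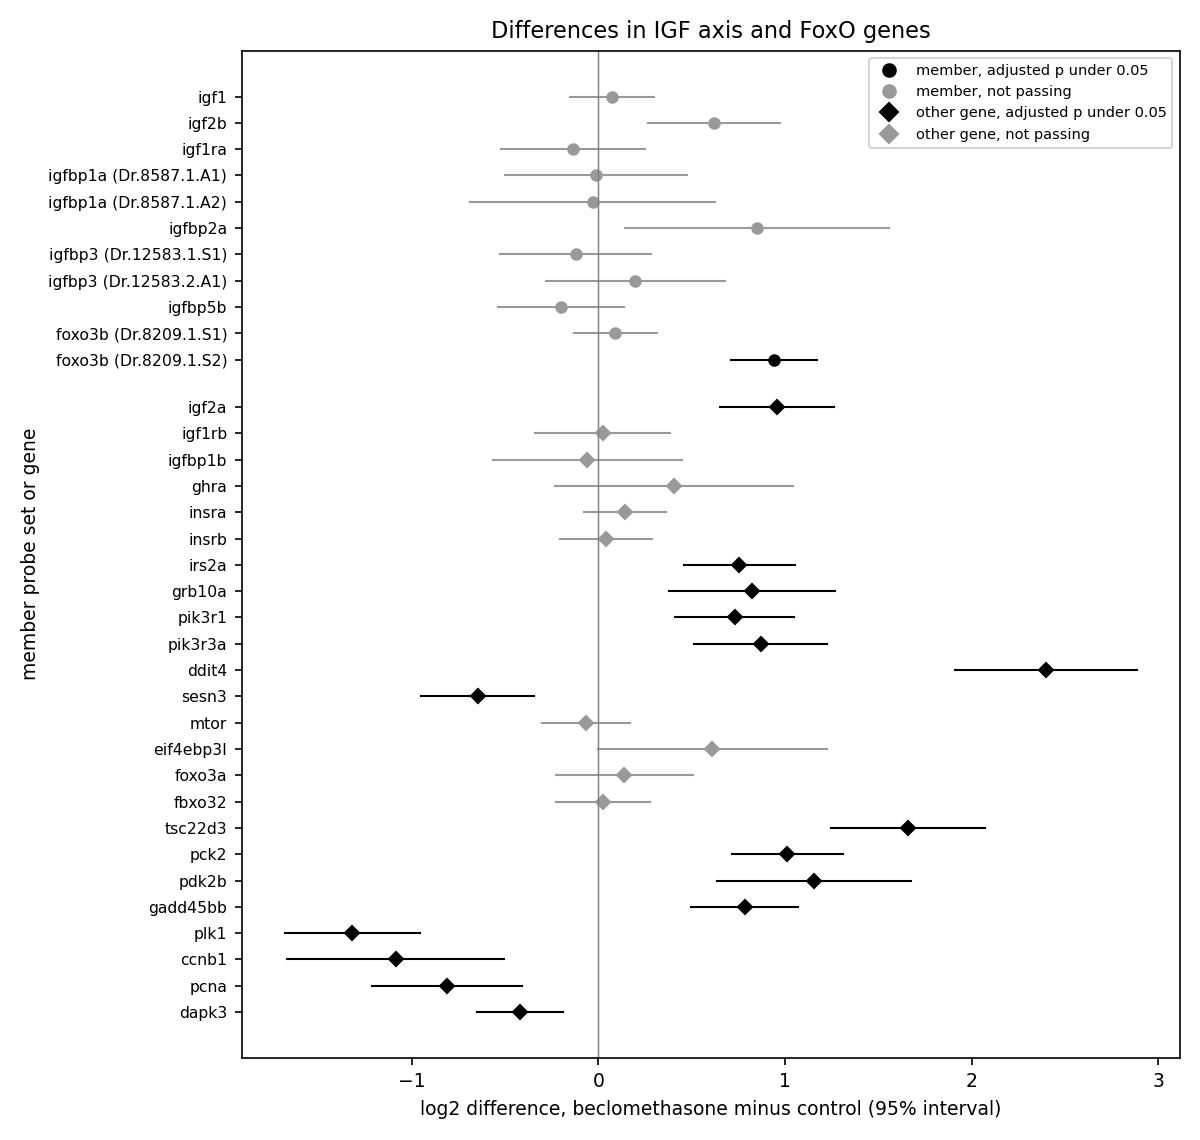
Log2 difference, beclomethasone minus control, with its 95% interval from limma. Circles in the upper block are member probe sets, and diamonds in the lower block are other genes of the axis. Black marks an adjusted p under 0.05, from the fit over probe sets for members and from the fit over genes for the others. Among members, the intervals of foxo3b probe set Dr.8209.1.S2_at (0.71 to 1.17), igf2b (0.26 to 0.97) and igfbp2a (0.14 to 1.56) lie above 0. The first of these passed. Of the other genes, ddit4 at 2.40 is the farthest right.

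Other genes of the axis were described with 6 lists covering ligands and carriers, receptor adaptors, PI3K and Akt, mTOR, FoxO factors, and genes known as FoxO targets in mammals. Of 191 genes listed, 95 had a probe set with a single symbol. For the list of FoxO factors this was 1 of 5, foxo3a, which did not pass. The lists were chosen with earlier results of these data known. They also hold genes known to be induced by glucocorticoids, such as ddit4 and tsc22d3, so the counts are given as a description. In limma over all genes, 10 of the 95 rose and 5 fell, and the median log2 difference was 0.12 against 0.02 over all genes. Over all 8793 genes, 4.24% rose and 4.58% fell, which are the shares to set beside the count of each list below. The number of risers was 5 or 6 without any 1 exposed pool and 19 without control pool 1. Fallers numbered 1 or 2 when a single exposed pool, control pool 2 or control pool 3 was omitted. Counts over all probe sets, not genes, moved as well. With all pools 446 probe sets were higher, against 199, 176 and 187 on dropping exposed pools 1 to 3 in turn. Dropping control pool 1 gave 565. The 502 lower probe sets became 217, 204 and 180 on dropping those exposed pools. They became 262 and 235 on dropping control pools 2 and 3. Smaller counts with fewer pools were thus not limited to the axis.

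In the list of ligands, carriers and their proteases, 1 of 9 measured genes rose, igf2a, and none fell (median log2 difference 0.05). The growth hormone receptor gene ghra had a value of 0.41 ± 0.27 (adjusted p = 0.434).

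Among 15 receptor and adaptor genes, 2 rose and none fell (median log2 difference 0.04, or -0.06 with quantile normalization). Irs2a, a substrate that carries the receptor signal to PI3K and the paralogue of the unmatched irs2b, had ratios of 1.27, 1.14 and 1.30 in beclomethasone pools against 0.857, 0.704 and 0.654 in control pools. The groups were apart, with a log2 difference of 0.75 ± 0.13 (1.69-fold; limma adjusted p = 0.0159). Omitting exposed pool 1 or 3 ended the call (adjusted p = 0.061 and 0.0619). Grb10a encodes an adaptor that binds the IGF1 and insulin receptors and dampens their signal. Its ratios were 1.07, 1.57 and 1.44 in beclomethasone pools against 0.933, 0.721 and 0.652 in control pools, so exposed pool 1 and control pool 1 were near each other. It rose by 0.82 ± 0.19 (1.77-fold; limma adjusted p = 0.0404), a call that ended when pool 2 or 3 of either group was omitted, with adjusted p of 0.105 to 0.135. In the fit over probe sets that was used for the members, grb10a did not pass (adjusted p = 0.0506), nor did it with a pseudocount of 1 (adjusted p = 0.0504).

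Among 15 genes of PI3K, Akt and their brakes, 2 rose and none fell (median log2 difference 0.12), and both encode regulatory subunits of PI3K. Pik3r1 had mean ratios of 1.24, 1.24 and 1.11 in beclomethasone pools against 0.824, 0.601 and 0.753 in control pools, and rose by 0.73 ± 0.14 (1.66-fold; limma adjusted p = 0.021). One of its probe sets passed (0.81 ± 0.13, adjusted p = 0.0156) and the other did not (0.66 ± 0.19, adjusted p = 0.0942). Pik3r3a had ratios of 1.21, 1.31 and 1.31 in beclomethasone pools against 0.792, 0.553 and 0.777 in control pools, and rose by 0.87 ± 0.15 (1.83-fold; limma adjusted p = 0.0173). For both genes the groups were apart. Omitting any single exposed pool ended both calls, with adjusted p of 0.0571 to 0.0784, and omitting control pool 3 ended that of pik3r1 (adjusted p = 0.0566).

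Among 23 mTOR genes, 1 rose and 1 fell (median log2 difference 0.03). Ddit4, whose product restrains mTOR complex 1 and which glucocorticoids are known to induce in mammals, had ratios of 1.56, 2.73 and 2.42 in beclomethasone pools against 0.436, 0.367 and 0.438 in control pools. Exposed pool 1 was the lowest of its group and still far above the controls. The log2 difference was 2.40 ± 0.21 (5.27-fold; limma adjusted p = 0.00154), and it passed without any 1 pool. Sesn3, a sestrin gene whose product also restrains mTOR complex 1, went the other way, with ratios of 0.868, 0.819 and 0.791 in beclomethasone pools against 1.53, 1.25 and 1.13 in control pools. It fell by 0.65 ± 0.13 on the log2 scale (limma adjusted p = 0.0262), a call that ended when any single exposed pool or control pool 2 was omitted, with adjusted p of 0.0600 to 0.0943. Mtor itself had a value of -0.07 ± 0.10 (adjusted p = 0.768; 0.0029 without control pool 3).

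**Figure D3:**
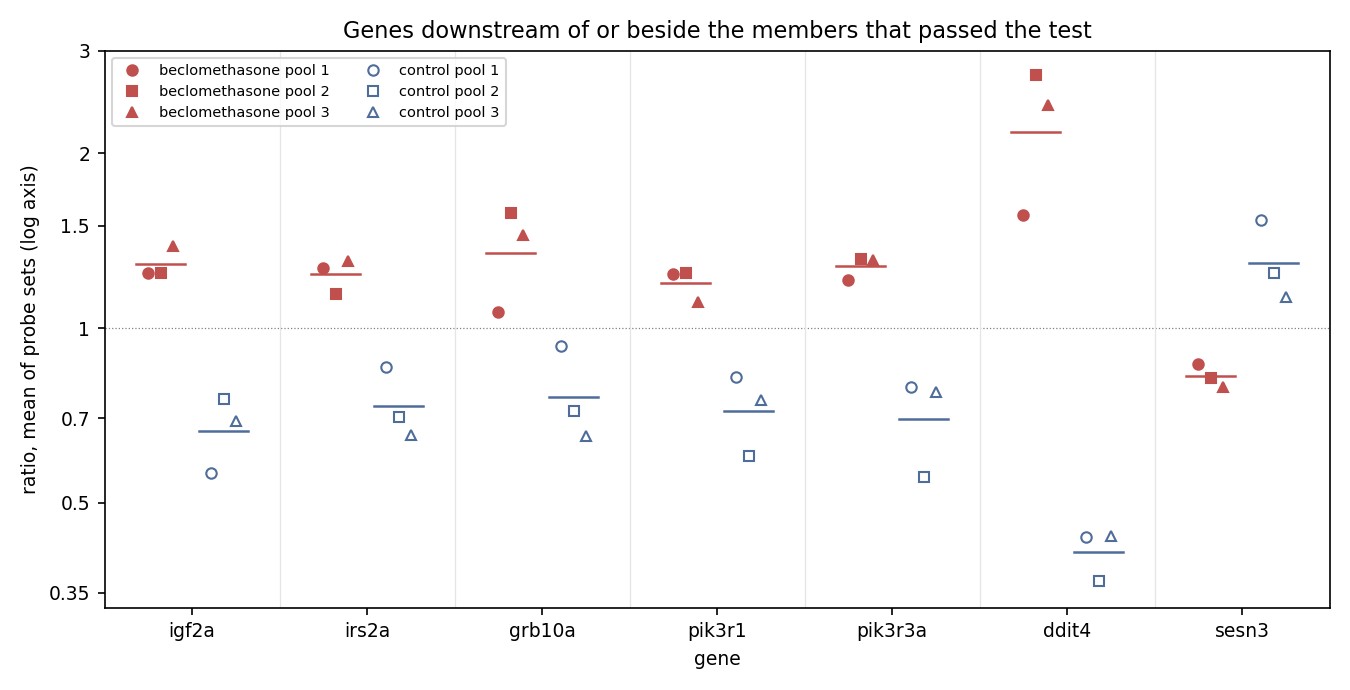
Ratio in each pool (log axis, mean of a gene's probe sets) of the 7 genes of the ligand, adaptor, PI3K and mTOR lists that passed in limma, with filled red symbols for beclomethasone pools, open blue symbols for control pools and bars for geometric means. The exposed pools lie above the control pools for 6 genes, with the narrowest gap for grb10a (1.07 in exposed pool 1, 0.933 in control pool 1), and below them for sesn3.

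Of 62 genes listed as FoxO targets from work in mammals, 39 were measured. Of these, 5 rose and 5 fell, with a median log2 difference of 0.20, against 4.24%, 4.58% and 0.02 over all 8793 genes. No expected direction was set for each gene, so these values give no reading of FoxO activity. The list shares 7 measured genes with the lists above, namely irs2a, insra, insrb, pik3ip1, sesn3, ulk1a and ulk1b. Risers besides irs2a were tsc22d3 (1.66 ± 0.18, adjusted p = 0.00284), which is also known as a direct glucocorticoid receptor target, and pck2 (1.01 ± 0.13, adjusted p = 0.0052), a phosphoenolpyruvate carboxykinase gene. Pdk2b (1.16 ± 0.22, adjusted p = 0.0222), whose kinase restrains pyruvate oxidation, and the stress gene gadd45bb (0.78 ± 0.12, adjusted p = 0.0121) also rose. Fallers besides sesn3 were the mitotic kinase gene plk1 (-1.32 ± 0.15, adjusted p = 0.00423), the mitotic cyclin gene ccnb1 (-1.09 ± 0.25, adjusted p = 0.0402), the replication clamp gene pcna (-0.81 ± 0.17, adjusted p = 0.0306) and the kinase gene dapk3 (-0.42 ± 0.10, adjusted p = 0.0434). Ccnb1, pcna and dapk3 were named after their values were seen. How well a FoxO link is established was not graded gene by gene or for each paralogue, and it is less established for pcna and dapk3, among others. In the fit over probe sets dapk3 did not pass (adjusted p = 0.0601), and ccnb1 did not with a pseudocount of 1 (adjusted p = 0.0511).

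Fbxo32, the atrophy ubiquitin ligase gene that FoxO factors induce in mammalian muscle, had a value of 0.03 ± 0.11 (adjusted p = 0.921; -0.048 without exposed pool 3). Tsc22d3, pck2 and plk1 passed without any 1 pool. Gadd45bb lost its call without exposed pool 3 (adjusted p = 0.0532), and pcna when exposed pool 3 or either of control pools 2 and 3 was omitted (0.0679 to 0.0821). The call of pdk2b ended when any single exposed pool or control pool 3 was omitted (0.0559 to 0.0873). That of ccnb1 held only when the pool omitted was control pool 1 (0.0728 to 0.109 otherwise), and that of dapk3 ended whichever pool was omitted (0.0684 to 0.126).

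For some genes of the axis, grouped after their values were seen, control pool 1 lay nearer the exposed pools than control pools 2 and 3 did. Besides igfbp2a these were ghra, the translation repressor gene eif4ebp3l and the autophagy kinase gene ulk1b. Eif4ebp3l had ratios of 1.05, 1.16 and 0.949 in beclomethasone pools against 1.08, 0.548 and 0.547 in control pools, and a difference of 0.61 ± 0.26 (adjusted p = 0.211). Ulk1b had ratios of 1.16, 1.29 and 1.21 in beclomethasone pools against 0.839, 0.208 and 0.306 in control pools, and a difference of 1.70 ± 0.45 (adjusted p = 0.0626). Ghra had ratios of 1.21, 1.15 and 0.852 in beclomethasone pools against 1.21, 0.713 and 0.588 in control pools. Without control pool 1 the differences were 0.94 for eif4ebp3l, 2.27 for ulk1b and 0.71 for ghra. As the genes were grouped by the place of that pool, these values are larger by the choice of genes and are given as a description.

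**Figure D4:**
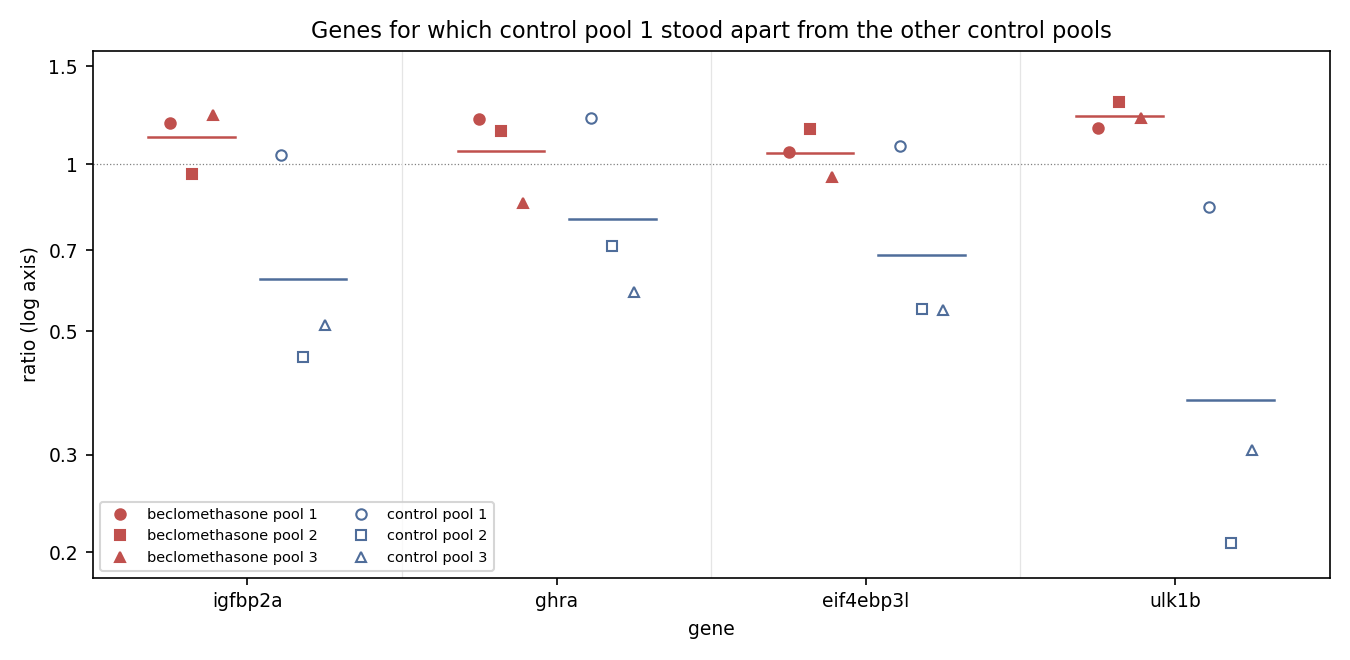
Ratio in each pool (log axis) of igfbp2a, ghra, eif4ebp3l and ulk1b, with filled red symbols for beclomethasone pools, open blue symbols for control pools and bars for geometric means. Control pool 1 (open circle) lies at 1.04, 1.21, 1.08 and 0.839, and control pools 2 and 3 lie between 0.208 and 0.713.

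Markers of other tissues also differed between the pools. Liver and yolk markers (22 of 29 measured) had median log2 ratios of 0.38, 1.40 and 0.04 in beclomethasone pools 1 to 3 against -0.23, -0.29 and -0.06 in control pools 1 to 3. The apolipoprotein gene apoa1a, named after its values were seen, had ratios of 13.8, 42.8 and 1.03 in beclomethasone pools against 0.657, 0.564 and 0.968 in control pools, a difference that did not pass (limma adjusted p = 0.118). Skeletal muscle markers (15 of 20) had medians of 0.71, 0.01 and 0.04 in beclomethasone pools against -1.61, 0.003 and -1.10 in control pools, so control pool 2 was close to exposed pools 2 and 3. In the same pools, the ratios of igf2b were 1.62, 1.22 and 1.12 with beclomethasone and 0.867, 0.801 and 0.881 in controls. Whether igf2b followed muscle content was not tested. Igfbp1a, made mainly in the liver in mammals, was highest in pool 1 among the exposed pools for both probe sets. Liver and yolk markers were highest in exposed pool 2, where the igfbp1a probe sets had ratios of 0.952 and 0.872. Probe set Dr.8587.1.A2_at was higher in control pools 2 and 3 than in any exposed pool. Whether igfbp1a followed liver content was not tested. Without exposed pools 1 and 2 the difference of igf2b was 0.40 (adjusted p = 0.315), that of foxo3b probe set Dr.8209.1.S2_at was 0.90 (adjusted p = 0.189) and that of igf2a was 1.06 (adjusted p = 0.2), with a single exposed pool assumed to vary like the controls.

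Leukocyte markers (10 of 11) had medians of -0.13, -0.003 and 0.01 in beclomethasone pools against -0.21, 0.58 and 0.68 in control pools, so control pool 1 again stood apart from control pools 2 and 3. Epidermal markers (14 of 17) had medians of -0.24, -0.21 and -0.39 in beclomethasone pools against 0.43, 0.05 and 0.17 in control pools. Of them, 6 fell, namely icn2, ppl, evpla, icn, agr1 and krt4, by 0.53 to 1.63 on the log2 scale. The other 8 did not pass, and single genes of the list ran up to a log2 difference of 0.59. Fin fold mesenchyme and blastema markers (11 of 16) had medians between -0.06 and 0.02 in beclomethasone pools and between -0.19 and 0.05 in control pools. Single genes of that list differed by -0.81 to 1.06 between groups, and col1a2 and bhmt rose. Over all 8793 genes, 4.24% rose and 4.58% fell by the same test. Agr1, col1a2 and bhmt each had 1 probe set that passed and 1 that did not in the fit over probe sets. For agr1 the values were -1.29 (limma adjusted p = 0.0256) and -0.19 (limma adjusted p = 0.598). For col1a2 they were 0.63 (0.0140) and 0.34 (0.151), and for bhmt 1.02 (0.0254) and 1.09 (0.111). The probe set names of icn2 and icn begin with the same number, and whether these genes fell separately was not tested. The median log2 difference over the leukocyte list was -0.40. The liver gene apoc1, the muscle gene myod1 and, against that median, the leukocyte genes cxcr4b and lyz were those of their lists that rose. None of these rises, col1a2 and bhmt included, held under the omission of each single pool: apoc1 lost its call without exposed pool 1 (adjusted p = 0.0513), cxcr4b without exposed pool 1 or 2 (0.0502 and 0.0532), and myod1, lyz, col1a2 and bhmt without any single exposed pool or control pool 3. Bhmt also lost it without control pool 2, with quantile normalization (0.0580) and with centring (0.0577). Of the epidermal falls, those of icn2, ppl and evpla held without any single pool. The part of these tissue differences in the values of igf2b, igfbp1a, igfbp2a and the other members was not tested.

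**Figure D5:**
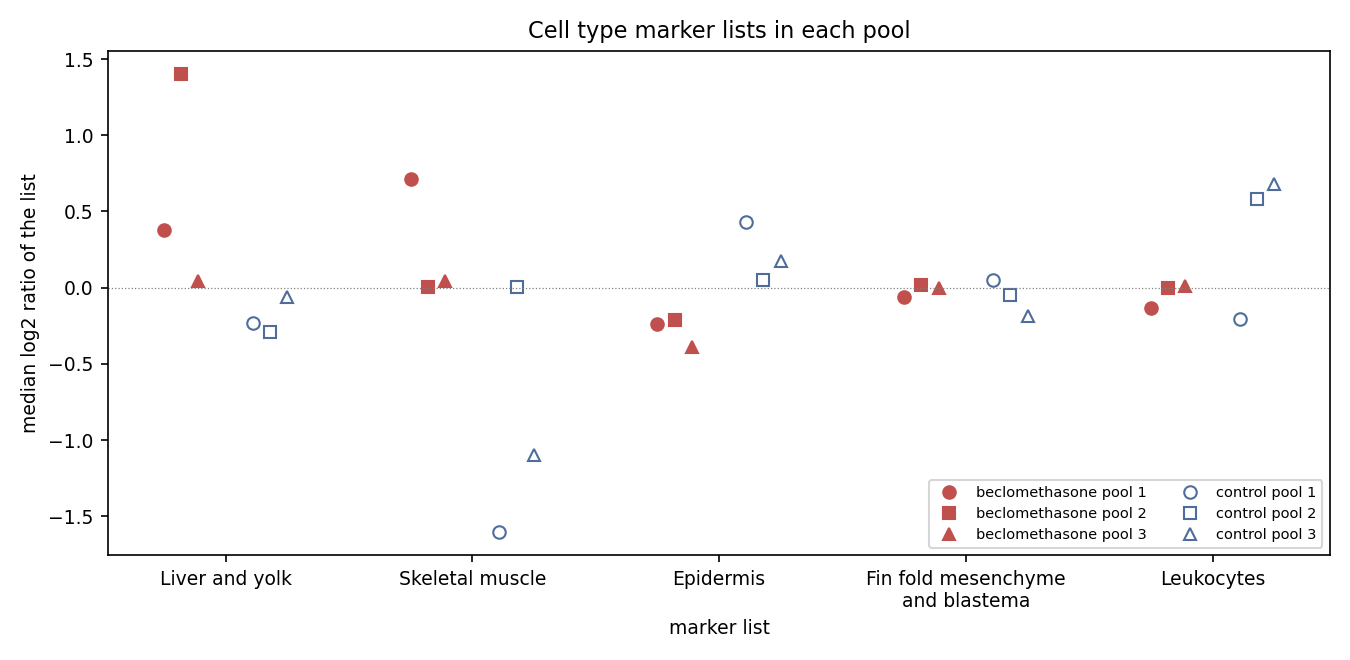
Median log2 ratio of 5 cell type marker lists in each pool, with filled red symbols for beclomethasone pools and open blue symbols for control pools. Liver and yolk markers are highest in exposed pool 2 (1.40), muscle markers are lowest in control pools 1 and 3 (-1.61 and -1.10), and leukocyte markers are highest in control pools 2 and 3 (0.58 and 0.68).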

How the data were processed

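RNA of 6 pools was amplified in 2 cycles and read on Affymetrix zebrafish arrays, 1 per pool, per the labels' protocols. The deposited values are a linear ratio per probe set; GCRMA is named per the submitters' processing notes, and the later division, which the values show, is named in no source used here. The design assumed no unit; log2 of the ratio was taken without a pseudocount or a filter.

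All 115 control probe sets were left out. Of the probe sets tested, 10795 had a single gene symbol in the array annotation, 4572 had none and 135 had several. Entrez numbers found in RefSeq replaced 1 outdated symbol. The fit used lmFit and eBayes of limma 3.58.1 under R 4.3.3 (two-sided, Benjamini-Hochberg, threshold 0.05), per probe set for members and per gene (mean log2 of its probe sets) elsewhere. SE and 95% intervals come from that fit. Its calls were tested on simulated data with independent noise in each pool, which did not check the SE or the intervals. Members and lists were chosen with earlier results of these data known. Named were all members, the passing genes of each list (at most 6, by p) and a set of pathway genes given by name; apoa1a, ulk1b, ccnb1, pcna and dapk3 were added after their values were seen; the closest patterns were the 5 genes of highest r. At most 0.161% of exactly equal values were shared by any pair of arrays.

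Alternatives were quantile normalization, centring, array weights, a robust fit with a variance trend, a replicate block, a filter on probe sets with a median below 1, a pseudocount of 1, each pool left out, and exposed pools 1 and 2 left out. Sequences were not used here.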

Additional observations from a re-analysis of the deposited data

How the results depend on the processing

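The rise of foxo3b probe set Dr.8209.1.S2_at kept its direction under every alternative run and its call under all but the one that left out exposed pools 1 and 2. The difference was 0.46 with a pseudocount of 1 and 0.90 to 0.98 in the other runs. A pseudocount of 1 compresses the log2 scale for ratios near 1 (igf2b went from 0.62 to 0.32), so 0.46 is not comparable with the other values. With array weights, 1073 probe sets were higher and 1104 lower over all, against 446 and 502, and 2 member probe sets rose, igf2b being added (0.56, adjusted p = 0.0172). Same-numbered pools did not deviate together (r of -0.21, -0.04 and 0.11 across probe sets for numbers 1 to 3), so they were not taken as pairs; with a replicate block, the counts were 200 and 236 over all and 5 and 3 for pathway genes. Without exposed pools 1 and 2, 2 were higher and 2 lower over all, and 0 members or pathway genes passed in either direction. With genes as the unit, 2 members rose. With 1 pool left out, 176 to 565 probe sets were higher and 180 to 668 lower, 1 to 2 member probe sets rose and 0 fell, and 5 to 19 pathway genes rose and 1 to 5 fell. Signs turned only among values near 0: igf1 with quantile normalization (-0.035), igf1ra with array weights (0.064), igf1rb with quantile normalization (-0.00050) or a pseudocount of 1 (-0.0028) and insrb with quantile normalization (-0.057). With 1 pool left out, igf1ra ran from -0.26 to 0.028, the igfbp1a probe sets from -0.20 to 0.14 and -0.37 to 0.16, igfbp3 probe set Dr.12583.1.S1_at from -0.25 to 0.072, igf1rb from -0.15 to 0.15, insrb from -0.028 to 0.11, igfbp1b from -0.20 to 0.20, mtor from -0.11 to 0.0029 and fbxo32 from -0.048 to 0.083. The cause of these changes was not tested. Signal over background is unknown for every probe set, which limits all values.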

Other observations

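Control pool 1 was the control pool farthest from the others for 7 of the 11 member probe sets, control pool 2 for 2 and control pool 3 for 2. Over all 15502 probe sets the shares were 35.5% for control pool 1, 30.1% for control pool 2 and 34.4% for control pool 3. Probe sets that share a gene are counted singly here, and the igfbp1a and igfbp3 pairs make up 4 of the 11.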
